A study of Homo sapiens with 4 samples.

Results

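A set of 10 genes of miRNA biogenesis was followed at the mRNA level in 293T cells, a human embryonic kidney cell line. They were taken by symbol from the 58243 Ensembl genes of each file, and all 10 were found. DROSHA and DGCR8 form the microprocessor, DDX5 and DDX17 are its DEAD-box helicase partners, and XPO5 is the export receptor of pre-miRNAs. DICER1, TARBP2, and PRKRA make up the Dicer complex, and LIN28B and DIS3L2 act in the tailing and decay of pre-miRNAs. The cells were transfected with a negative control RNA or with a mimic of miR-1, miR-122, or miR-124, and per the labels RNA was taken 48 h later, whereas the study's methods give a shorter time. A mimic is a synthetic duplex RNA with 1 strand of the mature miRNA sequence. There was 1 library for each of the 4 conditions, so that a mimic and its library cannot be told apart, and no test across conditions was possible. The 3 mimics were also set against the same control library, so their ratios to it are not independent of each other.

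A miRNA gene is transcribed as a long primary transcript, from which the microprocessor cuts a hairpin in the nucleus. Exportin-5, the product of XPO5, carries the hairpin to the cytoplasm with the GTPase Ran, and Dicer then cuts it to a duplex of which 1 strand is loaded into an Argonaute protein. LIN28 proteins bind the let-7 precursor and recruit enzymes that add a tail of uridines, and the exonuclease DIS3L2 degrades the tailed RNA. A mimic enters after the Dicer step, as a ready-made duplex. In animals a miRNA mostly recognizes mRNAs through its seed, bases 2 to 8 from the 5′ end, which pairs with the 3′ UTR.

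The values are FPKM, fragments scaled to gene length and library size, as the authors calculated them. The numbers of reads behind them were recovered from the steps of the values, and the library sizes that fitted ranged from 5887055 reads for miR-122 to 9452232 for miR-1. The 10 genes had between 95 and 3709 reads in a library. Intervals below are exact 95% intervals of these reads. They cover counting error only and compare libraries, not conditions. In bulk RNA, fewer cells with an mRNA and less of it per cell cannot be told apart. Of 10 markers listed for 293T cells, KRT18, VIM, NEFL, and KRT8 had the highest values in all 4 libraries, whereas PAX2 and PAX8 were below 0.05 and INA was listed at 0. The 6 hepatoma markers summed to at most 0.164 FPKM, the 5 muscle markers to at most 1.87, the 4 fibroblast markers to at most 4.50, and the 4 blood markers to at most 0.711. Most of the muscle sum was MYOD1 (at most 1.71), and most of the fibroblast sum was COL1A1 (at most 3.61). FPKM here divides by the whole gene span, so these values do not rank the markers by mRNA level. CDH2, for example, had 392 to 531 reads at an FPKM of at most 0.300.

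The mature sequences of miR-1 and miR-122 are shown first because their seed matches are used below to sort the 10 genes. They are from RefSeq, build GRCh38.p14, with the seed in capitals. The miR-1 sequence is encoded at chr18:21829015-21829036 on the minus strand and again at chr20:62554351-62554372 on the plus strand. The miR-122 sequence is encoded at chr18:58451088-58451109 on the plus strand.
hsa-miR-1-3p: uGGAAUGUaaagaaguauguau
hsa-miR-122-5p: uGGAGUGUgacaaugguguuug
Of each gene the 3′ UTR with the most bases was searched on the mRNA strand for the seed match, ACATTCC for miR-1 and ACACTCC for miR-122, and for its shorter forms. An 8mer has the full match followed by an A, a 7mer-m8 lacks that A, and a 7mer-A1 has the A and a match to seed bases 2 to 7 only. In all, 3 genes held such a site of miR-1. They were DDX5, DDX17, and DICER1, each with 1 7mer-m8. This is 30% of the 10 genes, and 24.8% of 9971 genes with enough reads held a 7mer or 8mer site of miR-1. The sites are printed with flanking bases, the match in capitals, and all lie on the minus strand of GRCh38.
DDX5, chr17:64499743-64499772: ggatatttctctACATTCCtgaaacaattt
DDX17, chr22:38483581-38483610: tggtctccagacACATTCCtgttgcattaa
DICER1, chr14:95089757-95089786: acaaactgttttACATTCCtttcattttat
The same number held a 7mer or 8mer site of miR-122, against 26.4% of 9345 genes. PRKRA had the only 8mer, which 3.58% of those genes had. DICER1 had a 7mer-m8 and XPO5 a 7mer-A1, and these are printed in the same way, again on the minus strand.
PRKRA, chr2:178431955-178431984: agattccatcaACACTCCAgatttaattat
DICER1, chr14:95087276-95087305: gaatgacctctaACACTCCtgtaattgtct
XPO5, chr6:43523416-43523445: tttctcttggacCACTCCAactcccactga
DROSHA, DGCR8, TARBP2, LIN28B, and DIS3L2 had none of these sites. A match is a description of the sequence and does not show that the site was used.

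A gene was counted as lower where its ratio of FPKM to the control library was at most 0.8, and as higher where the inverse ratio was at most 0.8. In the miR-1 library 4 of the 10 genes, DDX5, DDX17, DICER1, and LIN28B, were lower, and none was higher. Of 10973 genes with at least 200 reads over the pair of libraries, 16.9% were lower and 6.77% higher. At 1.5-fold or more, DDX5, DDX17, and DICER1 were lower, 30% of the 10 genes against 3.99% of all genes, and none was higher, against 0.693%. The whole interval was below 1 for the same 4 genes that were lower, against 26% of all genes, and above 1 for TARBP2, against 17.4%.

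In the miR-122 library 5 genes, DDX17, DICER1, PRKRA, LIN28B, and DIS3L2, were lower, against 10.6% of 10165 genes, and none was higher, against 5.96%. At 1.5-fold or more only DICER1 was lower, against 1.69% of all genes, and none was higher, against 0.61%. The interval was below 1 for 6 genes, which included DDX5 and XPO5 but not DIS3L2, against 18.7%, and above 1 for none, against 15.1%. In the miR-124 library 3 genes, DDX17, DICER1, and LIN28B, were lower, against 14.9% of 10296 genes, and none was higher, against 9.2%. At 1.5-fold or more none was lower or higher, against 2.05% and 1.16% of all genes. The interval was below 1 for 6 genes, which included DROSHA, DDX5, and XPO5, against 24.5%, and above 1 for TARBP2, against 18.9%. The median log2 ratio of the 10 genes came to -0.13 with miR-1 and -0.28 with miR-122, and it was -0.22 with miR-124. That of all genes was -0.04, -0.02, and -0.04.

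Levels of the 10 genes were compared with each other as reads per kilobase of annotated exon, scaled to library size as in FPKM, because FPKM here divides by the whole span of a gene with its introns. Whether reads in introns were counted is not known, and such reads would raise genes with long introns in this order. On this scale DDX17 was the highest in the control library at 56.0, followed by DDX5 at 46.0. DROSHA (14.4), TARBP2 (12.7), XPO5 (11.9), and LIN28B (10.8) came next, and each of them overlapped its neighbour in this order within the counting intervals. DGCR8 was at 7.87, and PRKRA at 3.38 and DICER1 at 3.09 overlapped. DIS3L2 was at 1.82, the lowest with these reads. The recovered reads of DICER1 and of PRKRA are all even, and smaller numbers by a factor of 2 would also give whole reads. DICER1 would then be at 1.55 and PRKRA at 1.69, both below DIS3L2, so that the order of these 3 genes is not settled. The 2 cases are not alike. The larger reads of DICER1 are those at exactly its annotated length of 71782, which the smaller reads do not match. The length for PRKRA, 20098, was fitted against an annotated 20220. The helicases thus had the highest level per exon length, and DICER1 was among the 3 lowest. All annotated exons count here, and those of DICER1, 22151 bases, include many that a single mRNA lacks. DDX17 and DDX5 led the order in all 4 libraries, and their intervals overlapped with miR-122 only. The gene length behind the FPKM of DDX5 differs from the annotated one, so that its reads and this order of the helicases are less certain, while ratios of DDX5 between libraries do not depend on it.

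The microprocessor genes differed little from the control library. DROSHA, the nuclear RNase III enzyme that cuts primary transcripts (ENSG00000113360, chr5:31400494-31532196, minus strand), had an FPKM of 0.853 in the control library and of 0.839 (miR-1), 0.918 (miR-122), and 0.749 (miR-124) with the mimics. Its ratio to the control came to 0.984 (interval 0.895 to 1.08) with miR-1 and 1.08 (0.970 to 1.19) with miR-122, and it was 0.879 (0.789 to 0.978) with miR-124. Between mimics, it was lower with miR-124 than with miR-122, at a ratio of 0.816 (0.732 to 0.909), the largest difference that DROSHA showed. DGCR8, the RNA-binding partner that positions DROSHA on the hairpin (ENSG00000128191, chr22:20080221-20111877, plus strand), was at 1.82, 1.78, 1.82, and 1.96 in the control, miR-1, miR-122, and miR-124 libraries. Its 4 levels spanned 1.10-fold, the narrowest range of the 10 genes, and all 3 intervals of its ratio held 1. The reads of DROSHA divided by those of DGCR8 came to 1.95 (1.72 to 2.21) in the control library, 1.96 (1.76 to 2.18) with miR-1 and 2.10 (1.84 to 2.40) with miR-122, and they came to 1.59 (1.40 to 1.80) with miR-124. The read ratio of the pair was lowest with miR-124, where its interval did not overlap that of miR-122 but did overlap those of the control and miR-1. The GC content of the 3′ UTR was 35.7% for DROSHA and 54.4% for DGCR8.

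The helicase genes were lowest with miR-1. DDX5 codes for p68, a helicase that binds the microprocessor and also acts in splicing and transcription (ENSG00000108654, chr17:64498254-64508199, minus strand). Its FPKM was 49.9 in the control library and 32.3 (miR-1), 45.9 (miR-122), and 41.3 (miR-124) with the mimics. The miR-1 library was the lowest by a wide margin, at a ratio to the control of 0.647 (0.614 to 0.683), whereas that of miR-122 was 0.921 and that of miR-124 was 0.828. Only 3.17% of all genes had a lower ratio with miR-1. DDX17, its close paralog p72 (ENSG00000100201, chr22:38483438-38507660, minus strand), was at 23.1 in the control library and 14.3 (miR-1), 17.7 (miR-122), and 17.4 (miR-124) with the mimics. Its ratio came to 0.618 (0.589 to 0.648) with miR-1 and 0.766 (0.728 to 0.806) with miR-122, and it was 0.753 (0.716 to 0.791) with miR-124, at or below 0.8 in all 3 libraries, whereas DDX5 was so with miR-1 only. Measured without the control library, as the ratio to the mean of the other 2 mimics, DDX5 was at 0.740 and DDX17 at 0.814 with miR-1, and both were above 1 with miR-122 and miR-124. The reads of DDX17 divided by those of DDX5 were 1.31 (1.246 to 1.37) in the control library, 1.249 (1.19 to 1.32) with miR-1 and 1.09 (1.03 to 1.15) with miR-122, and they were 1.19 (1.12 to 1.26) with miR-124. The intervals of the control and miR-1 libraries overlapped, so that a difference in fold between the helicases with miR-1 was not resolved at this depth.

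XPO5 was slightly lower in the mimic libraries. The export receptor gene (ENSG00000124571, chr6:43522334-43576038, minus strand) was at 1.87 in the control library and 1.75 (miR-1), 1.62 (miR-122), and 1.57 (miR-124) with the mimics. The ratio with miR-1 was 0.934 (0.844 to 1.03). It was 0.863 (0.768 to 0.970) with miR-122 and 0.840 (0.749 to 0.942) with miR-124, and none of these reached 0.8. Differences between mimics were not resolved for XPO5, since all 3 intervals of its ratios between mimics held 1. With miR-122, of which it has a 7mer-A1 site, its ratio to the other mimics was 0.973.

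DICER1 had the widest range of the 10 genes, 1.75-fold over the 4 libraries. Dicer is the cytoplasmic RNase III enzyme that cuts pre-miRNAs, and its gene (ENSG00000100697) lies at chr14:95086228-95158010 on the minus strand. The FPKM was 0.955 in the control library and 0.545 (miR-1), 0.620 (miR-122), and 0.707 (miR-124) with the mimics, so that each mimic library was below the control. The ratio to the control came to 0.571 (0.497 to 0.657) with miR-1 and 0.649 (0.556 to 0.758) with miR-122, and it was 0.740 (0.640 to 0.855) with miR-124. With miR-1, only 1.07% of all genes had a lower ratio, and with miR-122 only 1.24%. Against the mean of the other 2 mimics DICER1 was at 0.822 with miR-1 and 0.990 with miR-122, and it was at 1.21 with miR-124. With miR-122 DICER1 was therefore close to the other mimic libraries, and with miR-1 it was below them. Directly compared, miR-124 was above miR-1 by 1.30-fold (1.11 to 1.51), and the intervals of the other pairs held 1. With the smaller reads of DICER1 the intervals of the ratio to the control were 0.468 to 0.697 with miR-1, 0.520 to 0.809 with miR-122, and 0.602 to 0.909 with miR-124, all below 1. That of miR-124 against miR-1 was then 1.04 to 1.61, still above 1.

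Of the partners of Dicer, TARBP2 was above the control in each mimic library and PRKRA was lower with miR-122. TARBP2 codes for TRBP, a protein with double-stranded RNA binding domains that holds Dicer on its substrate (ENSG00000139546, chr12:53500921-53506431, plus strand). Its FPKM was 9.42 in the control library and 11.3 (miR-1), 10.8 (miR-122), and 11.1 (miR-124) with the mimics. The ratio was 1.20 (1.05 to 1.38), 1.14 (0.984 to 1.33), and 1.18 (1.02 to 1.36), respectively, the highest of the 10 genes in each comparison, and none counted as higher. The ratios between mimics lay between 0.951 and 1.03 for TARBP2, and their intervals all held 1. PRKRA codes for PACT, the other such partner of Dicer and an activator of the kinase PKR (ENSG00000180228, chr2:178431292-178451512, minus strand). It was at 2.03 in the control library and 1.83 (miR-1), 1.49 (miR-122), and 1.94 (miR-124) with the mimics. The miR-122 library stood below the others, at a ratio to the control of 0.733 (0.603 to 0.890) and 0.789 relative to the mean of miR-1 and miR-124. Compared directly, miR-122 was below miR-1 at 0.812 (0.673 to 0.976), and miR-124 was above miR-122 by 1.30-fold (1.07 to 1.59). With miR-1 and miR-124 the intervals of the ratio to the control held 1. With the smaller reads of PRKRA the interval of miR-122 against the control was 0.554 to 0.967, still below 1. Those between mimics then held 1, at 0.621 to 1.06 for miR-122 against miR-1 and 0.985 to 1.73 for miR-124 against miR-122, so that the differences of PRKRA between mimics rest on the larger reads.

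Within a library the reads of DICER1 divided by those of TARBP2 were 1.32 (1.14 to 1.52) in the control library, 0.626 (0.548 to 0.714) with miR-1 and 0.749 (0.635 to 0.881) with miR-122, and they were 0.830 (0.715 to 0.964) with miR-124. None of the mimic intervals overlapped that of the control library, and the ratio was highest in the control library. The reads of DICER1 divided by those of DROSHA, the other RNase III enzyme of the pathway, were 0.610 (0.542 to 0.687) in the control library, 0.354 (0.314 to 0.399) with miR-1 and 0.368 (0.318 to 0.425) with miR-122, and they were 0.514 (0.449 to 0.588) with miR-124. For this pair the interval of the miR-124 library overlapped that of the control. These ratios do not depend on the depth of a library, and lengths cancel when libraries are compared. With the smaller reads of DICER1 the ratio to TARBP2 was 0.660 (0.556 to 0.783) in the control library and at most 0.415 (0.344 to 0.499) with a mimic, again without overlap.

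LIN28B was lower in each mimic library by a similar amount. This RNA-binding protein blocks the maturation of let-7 miRNAs and is made in embryonic and some tumour cells (ENSG00000187772, chr6:104936616-105083332, plus strand), and its paralog LIN28A had at most 1 read in a library. The FPKM of LIN28B was 0.438 in the control library and 0.311 (miR-1), 0.295 (miR-122), and 0.324 (miR-124) with the mimics. The ratio was 0.709 (0.619 to 0.813), 0.674 (0.574 to 0.788), and 0.738 (0.636 to 0.857), respectively. Against the mean of the other mimics it was 1.00, 0.931, and 1.07, and all 3 intervals between mimics held 1, so that the control library alone stood apart. DIS3L2, the exonuclease of tailed pre-let-7 (ENSG00000144535, chr2:231961245-232344350, plus strand), had the fewest reads, 137 in the control library and 95 to 181 with the mimics. Its FPKM was 0.0540 in the control library and 0.0500 (miR-1), 0.0421 (miR-122), and 0.0545 (miR-124) with the mimics. The ratio with miR-122 was 0.780, but its interval of 0.594 to 1.02 held 1, as did those with miR-1 and miR-124, and a difference of this size was not resolved at this depth.

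The genes with a seed site were then set beside those without one. In the miR-1 library the 3 genes with a miR-1 site had the 3 lowest ratios of the 10, from 0.571 to 0.647, and the other 7 lay between 0.709 and 1.20. Against the mean of the other mimics, the former were at 0.740 to 0.822 and the latter at 0.942 to 1.10, without overlap. Over all genes, the median log2 ratio with miR-1 was -0.16 for 1894 genes with a 7mer as their best site and 0.01 for 5996 genes with no site. Genes with a 7mer of miR-1 were also lower where another mimic was used, at a median of -0.08 with miR-122 and -0.13 with miR-124, against 0.01 and 0.00 for genes with no site. When miR-1 was set against the mean of miR-122 and miR-124, the median was -0.06 for the genes with a 7mer and 0.01 for those with no site. Of those with a 7mer, 8.61% were lower by at least 1.5-fold, as all 3 genes here were, and of those with no site 1.72%. In the miR-122 library PRKRA, with the 8mer, was the lowest against the other mimics at 0.789, but DIS3L2, without a site, followed at 0.806, and DICER1 and XPO5, with 7mer sites, were at 0.990 and 0.973. The 335 genes with an 8mer of miR-122 had a median log2 ratio of -0.14, and the 5573 genes without a site one of 0.00. Genes with this 8mer had medians of -0.10 with miR-1 and -0.08 with miR-124 as well, and relative to the other mimics their median with miR-122 was -0.05, against 0.02 for genes without a site. LIN28B had no site of either miRNA, although it was lower than the control in both libraries. With 3 genes per miRNA this comparison by site is a description, and the part of the sites in the ratios was not tested.

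**Figure D1:**
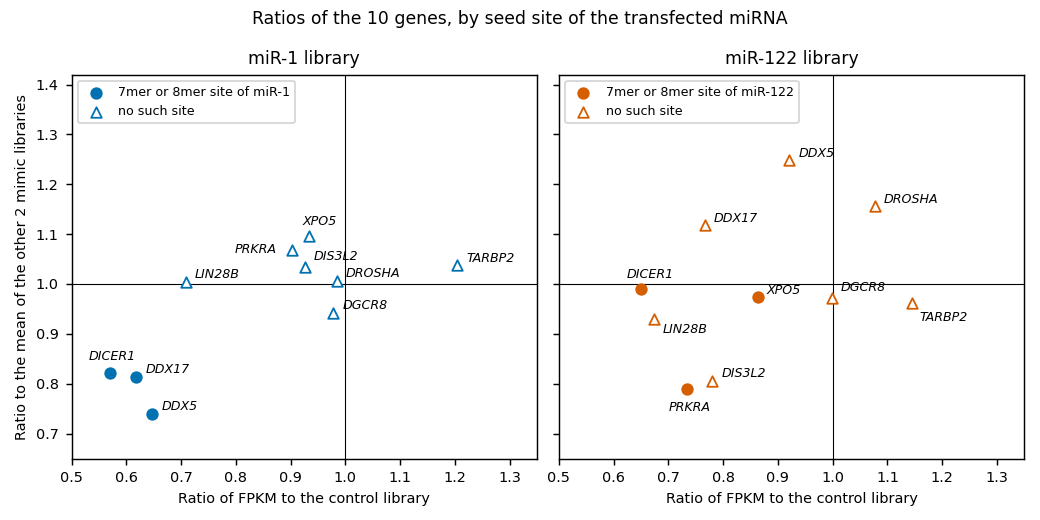
Each point is 1 of the 10 genes, with the ratio of FPKM to the control library on the x axis and the ratio to the mean of the other 2 mimic libraries on the y axis, for miR-1 on the left and miR-122 on the right. Filled circles are genes with a 7mer or 8mer site of that miRNA. On the left the 3 circles are the lowest on both axes, and on the right PRKRA is low on both while DICER1 and XPO5 are close to 1 on the y axis.

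The ratios to the control also moved with the base composition of the 3′ UTR. Over all genes, Pearson's r between the log2 ratio and 3′ UTR GC content came to 0.249 with miR-1 and 0.377 with miR-122, and it was 0.647 with miR-124, described across genes that share their libraries. In all, 5 of the 10 genes, DROSHA, DDX5, DICER1, PRKRA, and LIN28B, were in the quartile of genes with the lowest GC content, at most 36.1%. That quartile had a median log2 ratio of -0.13 with miR-1 and -0.12 with miR-122, and it was -0.23 with miR-124. DGCR8 and TARBP2 (58.4%) were in the highest quartile, with medians of 0.05, 0.11, and 0.22. After a trend with 3′ UTR GC content, 3′ UTR length, gene span, and reads was subtracted, DICER1 was at a ratio of 0.662 with miR-1 and 0.737 with miR-122, and it was at 0.906 with miR-124. DDX5 and DDX17 were at 0.638 and 0.629 with miR-1, and PRKRA was at 0.759 with miR-122. LIN28B moved to 0.846, 0.775, and 0.910, and TARBP2 to 1.10, 1.02, and 0.952. The low values of DICER1, DDX5, and DDX17 with miR-1 and of PRKRA with miR-122 were thus also present in the adjusted ratio. For miR-124, none of the 10 genes was lower or higher by the above definition after the adjustment. No share of all genes is given on the adjusted scale, so that this count has no background. The trend took up 52.0% of the variance over all genes for miR-124. Its part was smaller for miR-1 (21.9%) and for miR-122 (23.4%). The unadjusted share of 14.9% therefore does not apply to this count. The part of GC content in the unadjusted ratios was not tested further.

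**Figure D2:**
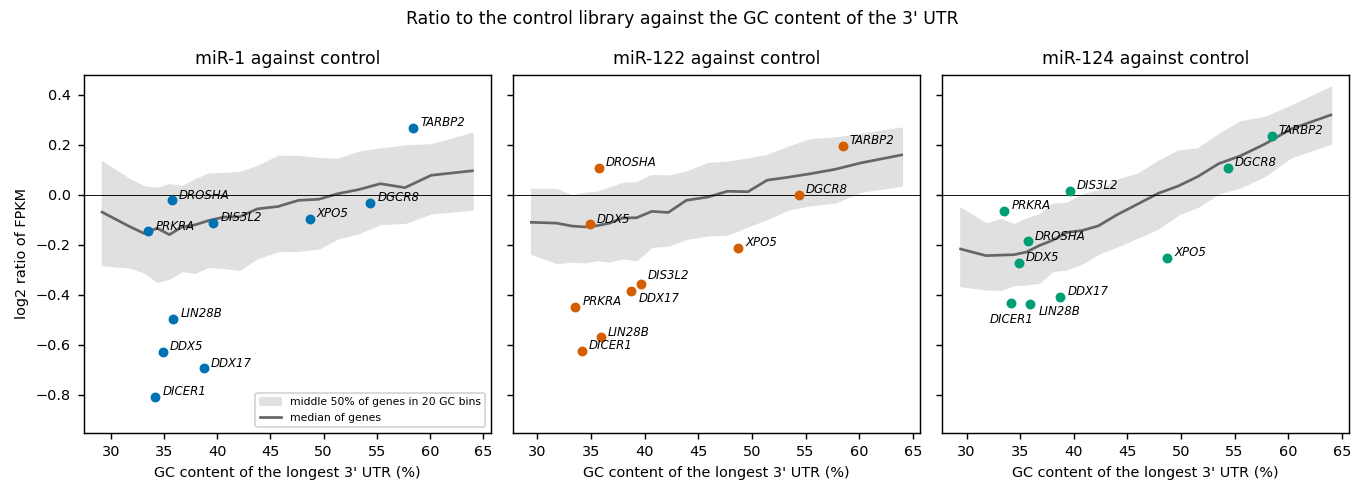
The log2 ratio to the control library is plotted against the GC content of the longest 3′ UTR, in percent, for the 10 genes (points) and for all genes in 20 bins of GC content (line, median, with the middle 50% in grey), with 1 panel per mimic. With miR-1 DICER1, DDX17, DDX5, and LIN28B lie below the grey band, and TARBP2 lies above it. With miR-124 the line rises from low to high GC content, and DICER1, LIN28B, DDX17, and XPO5 lie below the band. TARBP2, DGCR8, DROSHA, and DDX5 lie inside it, and PRKRA and DIS3L2 lie above it.

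Genes with a pattern like that of DICER1, the gene with the widest range, were looked for among 1065 other genes with at least 1000 reads in each library. The nearest by the distance of the 3 log2 ratios was AHNAK (distance 0.19), with a ratio of 0.625 for miR-1 and 0.686 for miR-122, and of 0.684 for miR-124. The next were the long noncoding RNA MALAT1 (0.24) and DDX17 (0.27). Only AHNAK was within 0.2. DICER1 itself had 262 to 454 reads in a library, and the distances leave out counting error. The order of these nearest genes is therefore not settled.

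The other 43 genes listed for the pathway served as a comparison, of which 40 had enough reads with miR-1 and 39 with the other mimics. With miR-1 4 of them were lower, a share of 10% against the 16.9% of all genes. With miR-122 this was 4 (10.3%, against 10.6%), and with miR-124 it was 7 (17.9%, against 14.9%). TSNAX alone was higher with miR-1 (2.5%, against 6.77% of all genes). For miR-122 none of them was higher, against 5.96%. RANGAP1 was the only higher gene for miR-124 (2.56%, against 9.2%). By the whole interval more of these genes were below 1. They were 15 (37.5%, against 26% of all genes) with miR-1 and 16 (41.0%, against 18.7%) with miR-122. With miR-124 they were 17 (43.6%, against 24.5%). The interval was above 1 for 7 (17.5%, against 17.4%), 5 (12.8%, against 15.1%), and 6 (15.4%, against 18.9%), respectively. Shares above the background by this rule were therefore not particular to the 10 genes. The median log2 ratio of the other pathway genes was -0.05, -0.03, and -0.07. ADAR, which edits adenosines in double-stranded RNA, including primary miRNAs, stood out with miR-1. It was at 5.21 in the control library and 2.64 with miR-1, a ratio of 0.508 (0.470 to 0.548), lower than that of any of the 10 genes. With miR-122 it was at 4.47 and with miR-124 at 4.57, and relative to their mean the miR-1 value was 0.585. Its 3′ UTR holds the 7mer-m8 match of miR-1 printed here with flanks, on the minus strand.
ADAR, chr1:154582086-154582115: acttaacaatatACATTCCtcataaataaa
Of the 14 pathway genes with a 7mer or 8mer site of miR-1 that had enough reads, however, 2 were lower, ADAR and EIF2AK2 (0.777), which codes for PKR. Over all genes, 28.2% of those with a 7mer as their best site and 41.6% of those with an 8mer were lower with miR-1. METTL14 and NCBP1 each held an 8mer of miR-1 and were at 0.915 and 0.826 with it, above 0.8. PARN, a poly(A)-specific ribonuclease that trims small RNAs, was the second lowest with miR-1 at 0.770 (0.664 to 0.894) and had no such site. TSNAX, a subunit of the RNase C3PO, was the highest with miR-1 at 1.26 (1.11 to 1.43), while its partner TSN was at 0.798.

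With miR-122 the lowest of these genes were METTL14, a subunit of the enzyme that methylates adenosines in mRNA and primary miRNAs, at 0.674 (0.545 to 0.832), and the cap-binding protein gene NCBP1 at 0.729 (0.628 to 0.845). Both hold a 7mer-A1 of miR-122, as do TSNAX (0.957) and PARN (1.04). Of 9 pathway genes with a 7mer or 8mer of miR-122, 2 were lower. Over all genes this was 13.4% with a 7mer as best site and 27.5% with an 8mer. The highest was SRRT, which joins the cap-binding complex to the microprocessor, at 1.17 (1.08 to 1.26). With miR-124 METTL14 was again the lowest at 0.745 (0.610 to 0.909), followed by DIS3L, a cytoplasmic exosome nuclease, at 0.750 (0.635 to 0.886). RANGAP1, the activator of the GTPase Ran, was among the highest in all comparisons, at 1.21 (1.15 to 1.28) with miR-1 and 1.14 (1.07 to 1.21) with miR-122, and it was at 1.26 (1.18 to 1.33) with miR-124. SAFB2, a partner of the microprocessor, was at 1.20 (1.09 to 1.33) with miR-124. Of the 6 genes of the Ran cycle and export, none was lower with miR-1, against 16.9% of all genes. The nuclear pore gene NUP153 (0.749) was the 1 lower gene with miR-122, against 10.6% of all genes. With miR-124 NUP153 (0.780) and the export receptor gene XPO1 (0.792) were lower, against 14.9%. Counts this small in a group of 6 are given as a description.

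**Figure D3:**
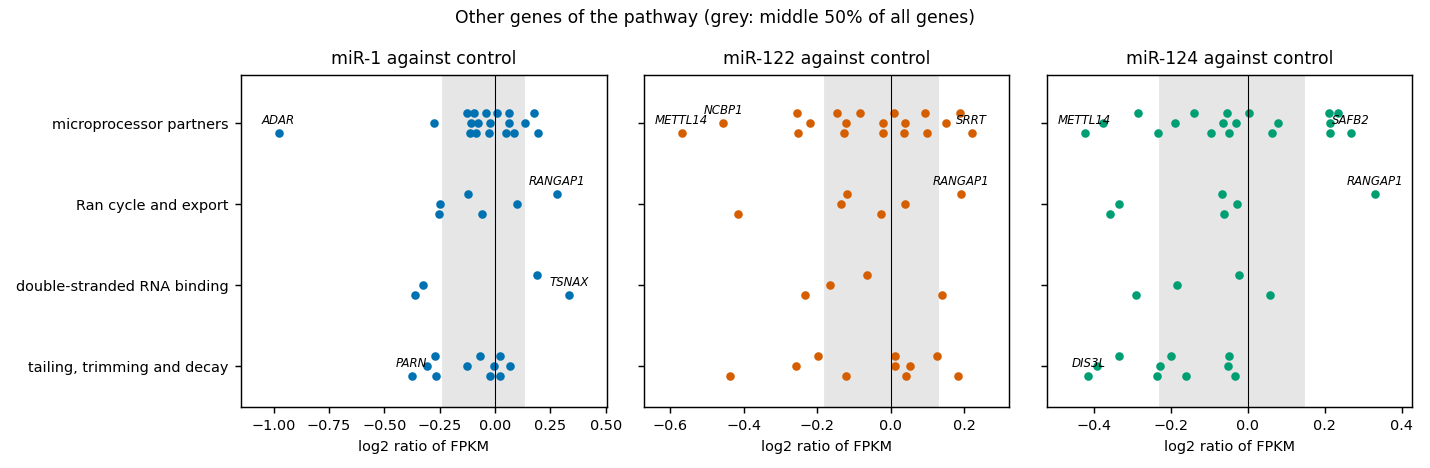
The log2 ratio to the control library is plotted on the x axis for the other pathway genes with at least 200 reads over the pair of libraries, in 4 groups on the y axis and 1 panel per mimic. The grey band is the middle 50% of all genes, and the 2 lowest and 2 highest genes of each panel are named. ADAR with miR-1, at -0.98, lies farthest from 0 in any panel.

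Reads of a gene and of its antisense neighbour cannot be told apart here, because no source states that strand was used. The largest annotated exon overlap with a gene on the other strand was that of TARBP2 with a long noncoding RNA (13.2% of its exon length), followed by PRKRA with CHROMR (8.85%) and DGCR8 with a long noncoding RNA (7.18%). Overlaps outside exons are left out of these shares. CHROMR had 82 to 136 reads in a library, against 176 to 348 for PRKRA. The long noncoding RNA at TARBP2 had 60 to 134, against 344 to 591, and that at DGCR8 had 68 to 105, against 339 to 533. DICER1-AS1 shares 0.361% of the exon length of DICER1 and had 22 to 39 reads, against 262 to 454 for DICER1. The part of antisense reads in the ratios of PRKRA and TARBP2 was not tested.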

How the data were processed

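RNA-seq of 4 libraries, 1 per condition, was used, so no groups of replicates exist. The authors trimmed single-end reads, aligned them to GRCh38 with HISAT2 2.0.0 after base calling with CASAVA 1.8 (versions from the submitters' processing notes), and deposited FPKM per Ensembl gene. The counting program and annotation are not given in the sources used here. From the deposited FPKM values, reads were recovered as whole multiples of the value of 1 read, within 0.001 reads, with the annotated span of GENCODE release 44 or the nearest whole length that fitted. This gave whole reads for 99.6% of 32010 genes above 0, and at the annotated span for 57.2%. For DDX5 the length that fitted was 8583 against an annotated 9945. Of 58243 IDs, 57532 matched the annotation.

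Ratios to the control used no pseudocount and genes above 0.004 in both libraries, a threshold from the study's methods. Shares of all genes used those with at least 200 reads over both libraries. Intervals were Clopper-Pearson for ratios and Poisson for levels. No p-value was calculated. All 10 genes were named. Of the other pathway genes the 2 lowest and 2 highest per mimic were named, and for the gene with the widest range the 3 nearest profiles. EIF2AK2, TSN, NUP153, and XPO1 were added after their values were seen, as were the sorting of pathway genes by site, the ratios of 2 genes within a library, and the smaller reads of DICER1 and PRKRA. The genes and lists were chosen with earlier results of these data known. Sites of miR-124 are not analysed here. Recovery and intervals were tested on simulated data. Calculations were run in Python 3.11.15 with pandas 2.3.3, scipy 1.17.1, and numpy 2.4.6, and plots were drawn with matplotlib 3.10.9.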

Additional observations from a re-analysis of the deposited data

How the results depend on the processing

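No paired analysis was possible because there was 1 library for each condition, and no replicate could be left out. When each mimic was set against the mean of the remaining mimics, the number of the 10 genes with a ratio of at most 0.8 came to 1 for miR-1 and 1 for miR-122, and it was 0 for miR-124, where their median log2 ratio was 0.11. The share of all genes called is not given here for this reference, the adjustment, centring, or a pseudocount. Counts under these settings therefore have no background. With the mean of the remaining mimics as the reference, 13 of the 30 log2 ratios of single genes changed sign. Of those that had been lower, these were LIN28B with miR-1 (0.0063), DDX17 with miR-122 (0.16), and DDX17 (0.12), DICER1 (0.28), and LIN28B (0.10) with miR-124. The others, which had not reached the fold, included DDX5 with miR-122 (0.32) and miR-124 (0.08). The median of the 10 genes came to 0.0080 for miR-1 and -0.04 with miR-122. This reference leaves out the control library by construction. It also puts the highest of the 3 mimic libraries of a gene at or above a log2 ratio of 0. A gene below the control in all 3, such as DDX17, DICER1, or LIN28B, must therefore change sign in at least 1 of them. The number of sign changes is thus partly fixed in advance and does not measure how firm the ratios to the control are. With the adjustment 5 of the 30 changed sign and with centring 3, none of which had reached the fold. With a pseudocount none did, but the median of the 10 genes with miR-122 was -0.13 at a pseudocount of 1 and -0.16 at 0.1, against -0.28. A pseudocount of 1 left 1 lower gene with miR-122 and 1 with miR-124, and such a pseudocount pulls genes with low FPKM toward no change. The GC and length adjustment left 3 with miR-122 and 0 with miR-124. A fold of at least 1.5 left 1 and 0. A call by the whole 95% interval gave 6 lower genes with miR-124 and made TARBP2 the 1 higher gene for miR-1 and the 1 for miR-124. The median log2 ratio of the other pathway genes with miR-124 was -0.022 when centred on all genes and -0.019 when adjusted. Beyond what the construction of a setting fixes, the cause was not tested. A pseudocount of 0.1 and centring moved no count of lower or higher genes by over 1.5 times, and 3′ UTRs of 1 representative transcript gave the same number of the 10 genes with a site.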
